A study of Homo sapiens with 2 samples.

Results

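The cytosolic ribosomal protein genes were taken as all human RefSeq genes whose symbol is RPL or RPS followed by a number, with or without a final A, X or L, together with RPLP0 to RPLP2 and RPSA; the RPS6K kinases were left out. The rule found 81 genes, of which 78 (96.3%, 89.6 to 99.2) carried a peak of CRTC2-precipitated RNA, and these held 304 of the 175546 deposited peaks, on 78 of 19480 genes with a peak. Of the 81 genes, 49 encode proteins of the large ribosomal subunit and 32 of the small subunit. RPL3L, RPL10L and RPL7A had no peak by the rule.

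Ribosomal proteins assemble with ribosomal RNA into the subunits that translate mRNA. Their mRNAs are among the most abundant in dividing cells, and they typically begin at the cap with a C followed by a run of pyrimidines, the 5′ terminal oligopyrimidine (TOP) motif, through which LARP1 and mTOR signalling control their translation. Many ribosomal protein genes also carry small nucleolar RNA (snoRNA) genes inside their introns.

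The peaks compare 1 CRTC2 RNA immunoprecipitation (RIP) library with 1 input library, both from HCCLM3, an established human hepatocellular carcinoma line labelled liver and wild type, so that the same unmodified cells gave both and only the first was precipitated with CRTC2, which coactivates transcription by CREB. Neither library has a replicate, so no value below has a replicate check. The samples include no precipitation with a control antibody, so CRTC2-bound and merely carried-over RNA cannot be told apart. Per the labels' protocols, a Magna RIP kit gave the RNA of both libraries, which were made with a stranded pico-input kit for total RNA. Because the cells were measured in bulk, a transcript carried by more cells and one carried in more copies per cell cannot be told apart.

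Each peak has a fold, the authors' ratio of RIP over input at its summit, and a q, the peak caller's adjusted p. From the deposited fold and p, the RIP fragments and the input level behind each summit were recovered; a fragment is 1 read as the caller placed it, 31 bp long. One input fragment counted as 0.634 on the RIP scale, so a summit with 31 fragments in both libraries has a fold of 1.55. At all summits the median was 2 RIP fragments, and 46.2% of peaks rested on 1 fragment. Only 51 summits in the whole list held more than 31 RIP fragments, against 80 with exactly 31 and 111 with 30 (the handling of duplicate reads is not given in the sources used here). Brackets after a fold give an exact Poisson 95% interval, computed on the RIP count with the input held fixed, and those after a share an exact Clopper-Pearson 95% interval; both cover counting error only. Of 15 hepatocyte and liver carcinoma markers, 10 had a summit inside the gene, and 6 reached 5 or more RIP fragments. KRT8 had 32 at most, KRT18 31, ALB 5, APOB 3 and AFP 2, while APOA1, APOA2, TTR, SERPINA1 and GPC3 had none. Of 5 blood markers 1 had a summit, on 1 fragment, and of 5 fibroblast and endothelial markers only PECAM1 had any, 9 summits with at most 3 fragments.

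Most ribosomal protein genes with a peak had one at the 5′ end of the transcript, and a few of these ends are shown here for that reason. A 5′-end peak is a peak whose summit lies 0 to 60 nt after its assigned start site, a window chosen after the positions were seen. Start sequences were found for 64 of the 81 genes in RefSeq (GRCh38.p14). The lines give the first 30 nt of the sense strand, 5′ to 3′, for the members with the highest −log10 p at the 5′ end among those with an entry that may be shown. Each start coincides with the start site assigned in the deposited list. Capitals mark a C at the start followed by at least 4 C or T letters, where present.
RPL3 (chr22:39319594-39319623, minus strand): ctctaccggcgggatttgatggcgtgatgg
RPLP0 (chr12:120201082-120201111, minus strand): CCTTCTCTCgccaggcgtcctcgtggaagg
RPL27A (chr11:8682792-8682821, plus strand): CTTTTTCgtctgggctgccaacatggtagg
RPL35 (chr9:124861928-124861957, minus strand): CTCTTTCCCTCggagcgggcggcggcgttg
RPL14 (chr3:40457339-40457368, plus strand): CTTCTCgcctaacgccgccaacatggtgag
RPS21 (chr20:62387103-62387132, plus strand): CCTTTCTCTCTCgcgcgcggtgtggtggca
RPL19 (chr17:39200323-39200352, plus strand): tttcgctgctgcggccgcagccatgaggtg
RPL36A (chrX:101391011-101391040, plus strand): CTTTCTTTCCgcgccgatagcgctcacgca
RPS4X (chrX:72277219-72277248, minus strand): aatttctacgcgcaccggaagacggaggtc
RPL39 (chrX:119791601-119791630, minus strand): CCCTCCTCTTCCTTTCTCCgccatcgtggt

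In 7 of these 10 lines the pyrimidine run begins at the start, and in RPL3, RPL19 and RPS4X it does not. Searched on the sense strand exactly at the RefSeq start, the run was present in 46 of 64 ribosomal protein genes (71.9%, 59.2 to 82.4) and in 1404 of 27305 RefSeq genes (5.14%). It was present in 40 of the 46 ribosomal protein genes that had a 5′-end peak and a sequence (87.0%, 73.7 to 95.1), and in 5 of the 16 that had a peak but none at the 5′ end (31.3%, 11.0 to 58.7). Other genes with a 5′-end peak held the run in 160 of 2367 cases (6.76%). When it was allowed to begin up to 5 nt on either side of the start, the shares were 82.8% of the ribosomal protein genes and 25.2% of all RefSeq genes, with 43 of the 46 and 9 of the 16. The match describes letters and is not a measured site. Both the run and the 5′-end peak are placed from annotated start sites, so a misplaced start can take both from a gene. The part of this in the shares was not tested.

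A 5′-end peak was found in 59 of the 78 ribosomal protein genes with a peak (75.6%, 64.6 to 84.7), against a background of 15.5% of all genes with a peak and 19.3% of protein-coding ones. Ribosomal protein transcripts were also deeply covered, where the median was 26 RIP fragments (quartiles 23 and 28) against 5 (3 and 10) at the 3038 5′-end peaks of other genes, and 21 input fragments (16 and 25.5) against 5 (2 and 10) where the input level was a whole number of fragments. Among genes with at least 1 peak of 20 or more RIP fragments, a 5′-end peak was found in 54 of 69 ribosomal protein genes (78.3%, 66.7 to 87.3) and in 381 of 1218 other genes (31.3%, 28.7 to 34), against a background of 33.8% of all genes above that floor. This floor was chosen after the data were seen and does not make the depths alike: the deepest summit per gene had a median of 28 RIP fragments (quartiles 26 and 30) in those ribosomal protein genes and 23 (21 and 26) in those other genes. A 5′-end peak that itself held 20 or more RIP fragments was found in 52 of the 78 ribosomal protein genes (66.7%, 55.1 to 76.9), against a background of 1.47% of all genes, and 18.1% of the 288 such peaks in the list lay in ribosomal protein genes.

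The position of these peaks was narrow. Summits lay at a median of 29 nt after the start (quartiles 25.5 and 36, range 13 to 60) in ribosomal protein genes, and at a median of 30 nt (22 and 44) in other genes with a 5′-end peak. Between 20 and 40 nt lay 47 of 59 summits (79.7%) in ribosomal protein genes and 49.7% in other genes. The median width was 46 bp in ribosomal protein genes and 107 bp in other genes. The median position is close to the 31-bp length of a placed fragment, and the part of that length in the position was not tested.

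**Figure D1:**
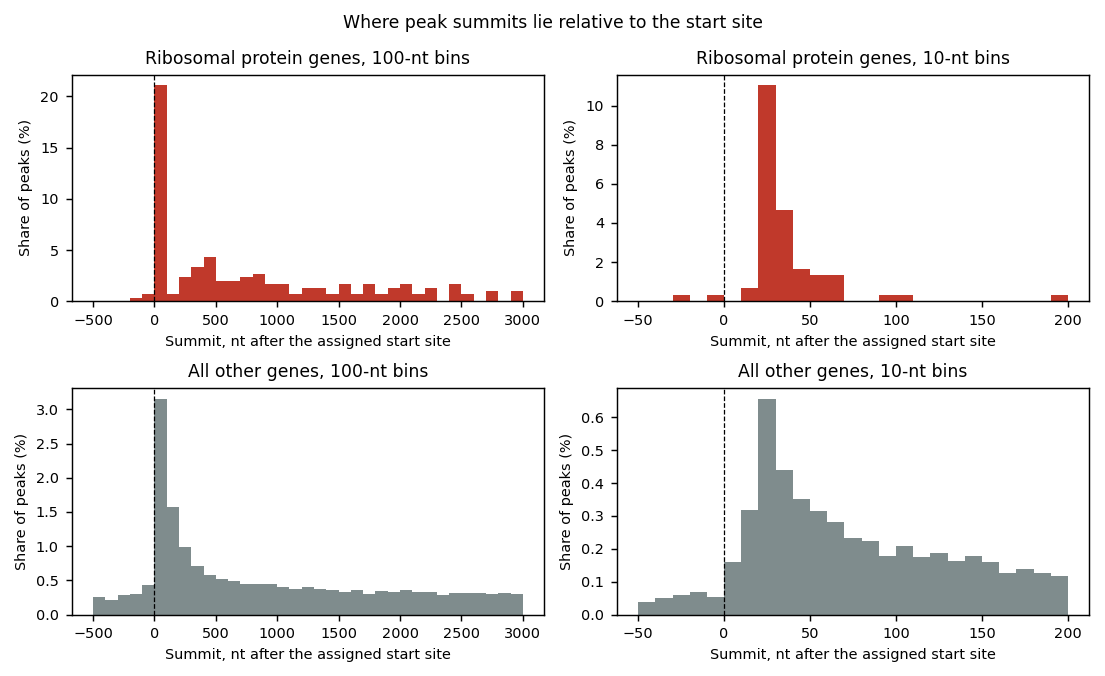
Share of peaks (%, vertical axis, scaled separately in each panel) by the distance of the summit from the assigned start site in nt (horizontal axis), for ribosomal protein genes (top) and all other genes (bottom), in bins of 100 nt (left) and 10 nt (right). Both groups have their highest bin just after the start, and in ribosomal protein genes 47 of 59 5′-end summits lie at 20 to 40 nt.

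The folds at the 5′ ends were modest. The median was 1.90 (quartiles 1.61 and 2.30, range 1.42 to 5.29) over the 59 ribosomal protein genes and 1.88 over other genes. The ribosomal protein genes thus stood apart in how often and how deeply the 5′ end was covered and not in the fold. With few summits above 31 RIP fragments in the list, their deep input left little room for a higher fold, and the part of this was not tested. Every peak in the list had already passed the caller's test of RIP over input, so a fold above that of equal counts is not by itself a result about these ends. The caller's q was 0.05 or less at the 5′ end of 6 ribosomal protein genes (7.69%, 2.88 to 16), among them RPL3, RPLP0, RPL27A, RPL35 and RPS9, against a background of 0.441% of all genes. Most of those genes had no 5′-end peak at all. Among 5′-end peaks alone, the share was 10.2% of the 59 in ribosomal protein genes and 2.63% of the 3038 in other genes. Their median depths were 26 and 5 RIP fragments, and the part of depth in these shares was not tested. Within the gene, the 5′-end peak had a higher fold than every other peak on the same chromosome or contig in 22 of the 42 members that had both, and not in 20; 17 members had the 5′-end peak only.

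**Figure D2:**
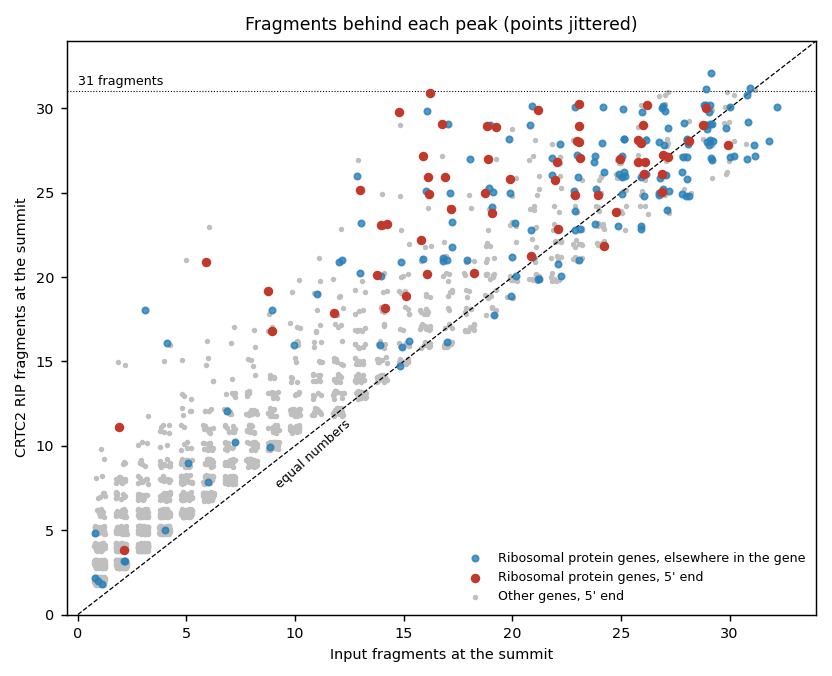
RIP fragments (vertical axis) against input fragments (horizontal axis) at each summit whose input level is a whole number of fragments, with red points for 5′-end peaks of ribosomal protein genes, blue points for their other peaks inside the gene and grey points for 5′-end peaks of other genes; points are jittered by a small random amount. All points passed the caller's test of RIP over input; the red points have a median of 26 RIP and 21 input fragments, and the grey points lie mostly lower on both axes.

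Along the gene, the median depth was the same up to 3000 nt, while the median fold was higher at the 5′ end than further along. The 68 summits at 61 to 1000 nt had a median fold of 1.60 on 26 RIP fragments, and the 58 beyond that and up to 3000 nt a median fold of 1.66 on 26 fragments. The 49 summits inside the gene beyond 3000 nt had a median fold of 1.80 on 8 fragments, and were the shallowest. Of the other summits inside the gene, 3 lay before the assigned start, with a median fold of 2.13, and 5 had been assigned to the start of another gene. The promoter class of the deposited annotation, which takes every peak within 3000 bp of a start site before any other class, held 196 of the 304 peaks (64.5%, 58.8 to 69.9), against 20.9% of all peaks. It was followed by the 3′ UTR class with 44 (14.5%, against 13.8% of all peaks), exons with 25 (8.22%, against 30.4%), distal intergenic positions with 24 (7.89%, against 6.09%) and introns with 14 (4.61%, against 26.6%). Since these genes are short, most of the promoter class is transcribed sequence: 188 of its 196 summits lay inside the assigned gene as the deposited list places it. Over all classes, 242 of the 304 summits did. Of these, 230 lay inside the RefSeq span, and the other 12 were 11 on alternate contigs and an RPL21 peak on chromosome 10, where the list places a copy of that transcript. The 62 outside it, around 31 genes, were shallow (median 2 RIP fragments), and none reached a q of 0.05.

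Over all 304 peaks the median fold was 1.79 (quartiles 1.55 and 2.05), against 1.89 (1.76 and 2.35) over all peaks. The median depth was 23 RIP fragments (quartiles 4 and 27, at most 32) in ribosomal protein genes and 2 (1 and 4, at most 49) over all peaks. Ribosomal protein genes held 6.45% of the 2838 peaks with 20 or more RIP fragments. A single fragment carried 50 of the 304 peaks (16.4%), fewer than in the list as a whole. The highest fold per gene had a median of 2.21 (quartiles 1.88 and 2.59) over the 78 genes, and 2.83 (1.94 and 3.45) over all genes with a peak. A fold of at least 2 was reached by 48 of the 78 (61.5%, background 72.9%), a fold of at least 3 by 7 (8.97%, background 37.3%) and a fold of at least 4 by 3 (3.85%, 0.80 to 10.8, background 11.3%), among them RPS9 and RPL3. Counted over peaks, a fold of at least 4 was as common in ribosomal protein genes (5 of 304, 1.64%) as in the list as a whole (background 1.63%). A highest fold per gene also depends on how many peaks a gene has, a median of 3.5 in ribosomal protein genes and 5 over all genes. Few summits in the list held more than 31 RIP fragments, so a summit with a deep input had little room for a high fold. The part of this in the shares above was not tested.

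Of the 304 peaks, 12 had a q of 0.05 or less (3.95%, 2.06 to 6.79, background 1.63% of all peaks). They lay in 10 of the 78 genes (12.8%, 6.32 to 22.3), against a background of 11.3% of all genes, which lies inside the interval of the ribosomal protein genes. They included RPL3, RPL22, RPL27A, RPL30, RPL35 and RPLP0 of the large subunit and RPS9 and RPS21 of the small subunit. Values of the large and small subunit lay close to each other. A 5′-end peak was found in 33 of 46 large-subunit genes with a peak (71.7%, 56.5 to 84.0) and 26 of 32 small-subunit genes (81.3%, 63.6 to 92.8), intervals that overlap. The median highest fold was 2.24 in the large and 2.21 in the small subunit, and the median 5′-end fold was 1.92 (range 1.42 to 4.58) in the large and 1.80 (1.44 to 5.29) in the small subunit.

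**Figure D3:**
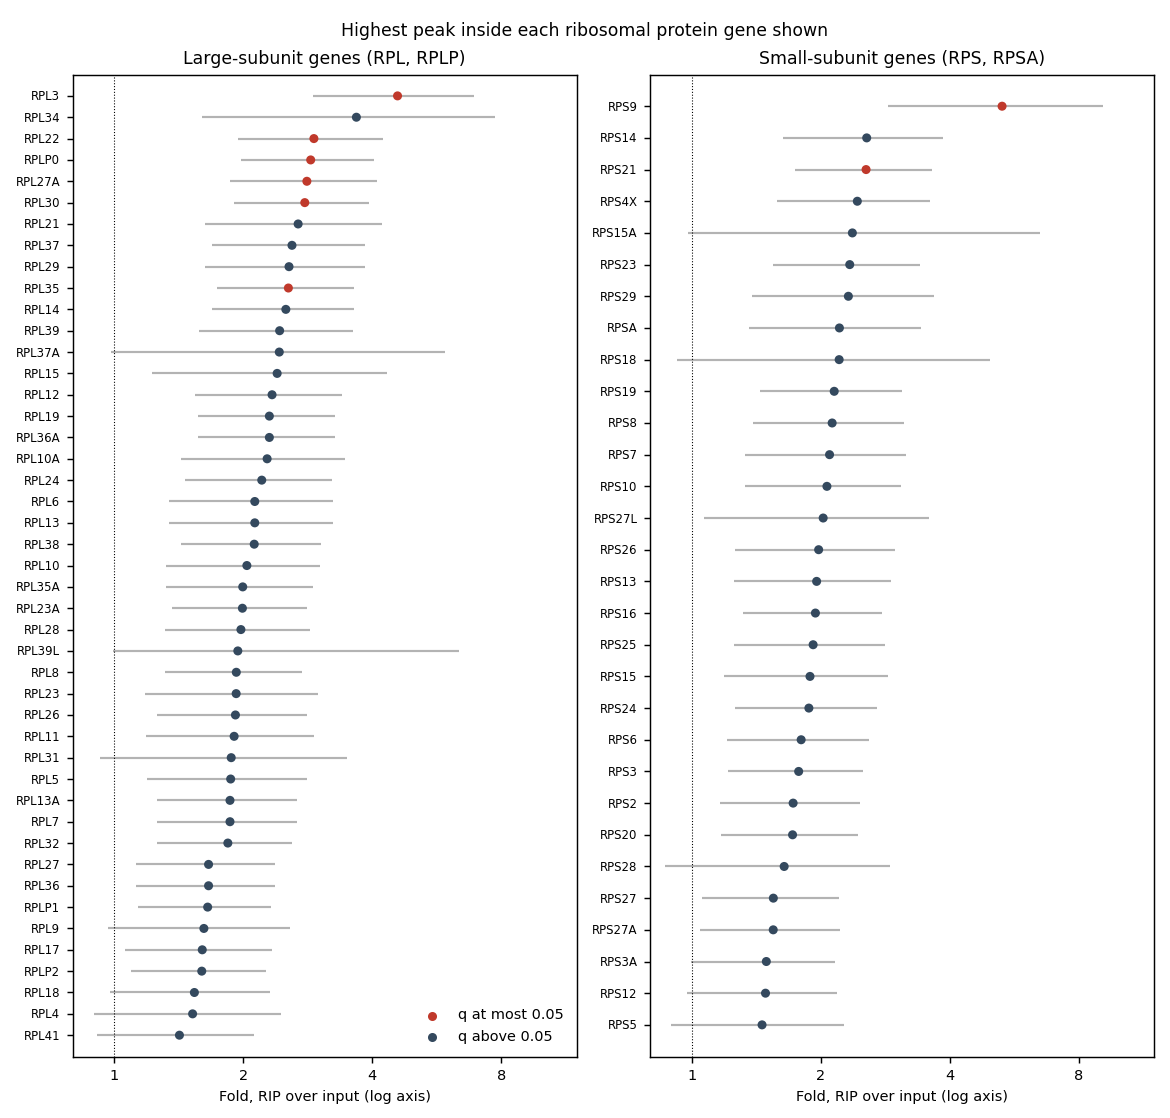
Highest fold of RIP over input (horizontal axis, log scale) among the peaks with a summit inside each ribosomal protein gene shown, for large-subunit genes (left) and small-subunit genes (right), with exact Poisson 95% intervals as lines; red points have a q of at most 0.05. RPS9 at 5.29 and RPL3 at 4.58 stand above the other genes shown, which lie between 1.42 and 3.67.

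Among large-subunit genes, RPL3, which encodes a protein near the peptidyl transferase centre, had the highest fold. Its 5′-end peak (chr22:39319571-39319611, summit 24 nt after the start) held 21 RIP fragments against 6 input fragments, a fold of 4.58 (2.92 to 6.89) at a q of 6.75e-05. The input was thin at this end while the rest of the gene was deep in both libraries: 8 more summits inside RPL3, all assigned in the list to the snoRNA genes SNORD83A, SNORD83B, SNORD139 and SNORD43 in its introns, had 21 to 28 RIP fragments against 12 to 30 input fragments. The highest of those 8 folds was 2.56 (1.63 to 3.85), and the intervals of that peak and the 5′-end peak overlap. RPL3 is also one of the members whose RefSeq start lacks the pyrimidine run.

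RPLP0, the scaffold protein of the ribosomal stalk, held 31 RIP fragments against 16 input fragments at its 5′ end (chr12:120201059-120201094, summit at 27 nt), a fold of 2.87 (1.98 to 4.04) at a q of 0.00426. Its 3 other peaks had folds of 2.30, 1.66 and 1.60. The other stalk proteins, RPLP1 and RPLP2, were as deep but close to the fold of equal counts: RPLP1 had 27 RIP fragments against 26 input fragments at 27 nt, a fold of 1.60 (1.08 to 2.31), and RPLP2 had 30 against 29 at 58 nt, a fold of 1.60 (1.1 to 2.26). The interval of RPLP0 overlaps those of both.

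RPL27A held 25 RIP fragments against 13 input fragments at its 5′ end (chr11:8682799-8682843, summit at 24 nt), a fold of 2.81 (1.86 to 4.10) at a q of 0.0294. RPL35 held 29 against 17 (chr9:124861888-124861933, summit at 43 nt), a fold of 2.55 (1.73 to 3.62) at a q of 0.0465. Both encode structural proteins of the large subunit, and in RPL35 the 3 peaks further along the gene had folds of only 1.36 to 1.60. RPL14, also a large-subunit protein, had 27 RIP fragments against 16 input fragments at 24 nt, a fold of 2.51 (1.69 to 3.62), at a q of 0.0953. RPL19 and RPL36A each had 29 against 19 at the 5′ end, a fold of 2.30 (1.57 to 3.27). The sequence of RPL36A starts with the pyrimidine run, and that of RPL19, read at its assigned start, does not. The RefSeq span of RPL19 begins further upstream, at 39200283 against 39200323 for the assigned start.

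A pair of large-subunit genes reached q of 0.05 away from the 5′ end. RPL22, whose protein also binds Epstein-Barr virus RNA, had its highest peak 1943 nt after the start (chr1:6197625-6197668), with 26 RIP fragments against 13 input fragments and a fold of 2.92 (1.95 to 4.23) at a q of 0.0123. Its 5′ end held 25 against 19, a fold of 1.99 (1.32 to 2.91), and a peak in exon 3 of 4 held 31 in both libraries, a fold of 1.55. The intervals of the highest peak and the 5′-end peak overlap. RPL30, which is known in yeast to bind its own transcript, had no 5′-end peak, and its highest peak lay 196 nt after the start (chr8:98045324-98045522), with 30 RIP fragments against 16 input fragments and a fold of 2.78 (1.91 to 3.93) at a q of 0.00826.

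The ribosomal proteins RPL5 and RPL11, which form a particle with 5S ribosomal RNA and bind MDM2 when ribosome assembly is disturbed, did not stand out. RPL5 had 25 RIP fragments against 23 input fragments at its 5′ end, a fold of 1.67 (1.1 to 2.43). RPL11 had 19 against 15 at its 5′ end, a fold of 1.90 (1.18 to 2.92), and 26 to 28 against 25 to 28 at its 4 other peaks, with folds of 1.44 to 1.66. The lowest 5′-end fold among all members was that of RPL41, which encodes the smallest ribosomal protein, with 22 RIP fragments against 24 input fragments, 1.42 (0.912 to 2.12).

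**Figure D4:**
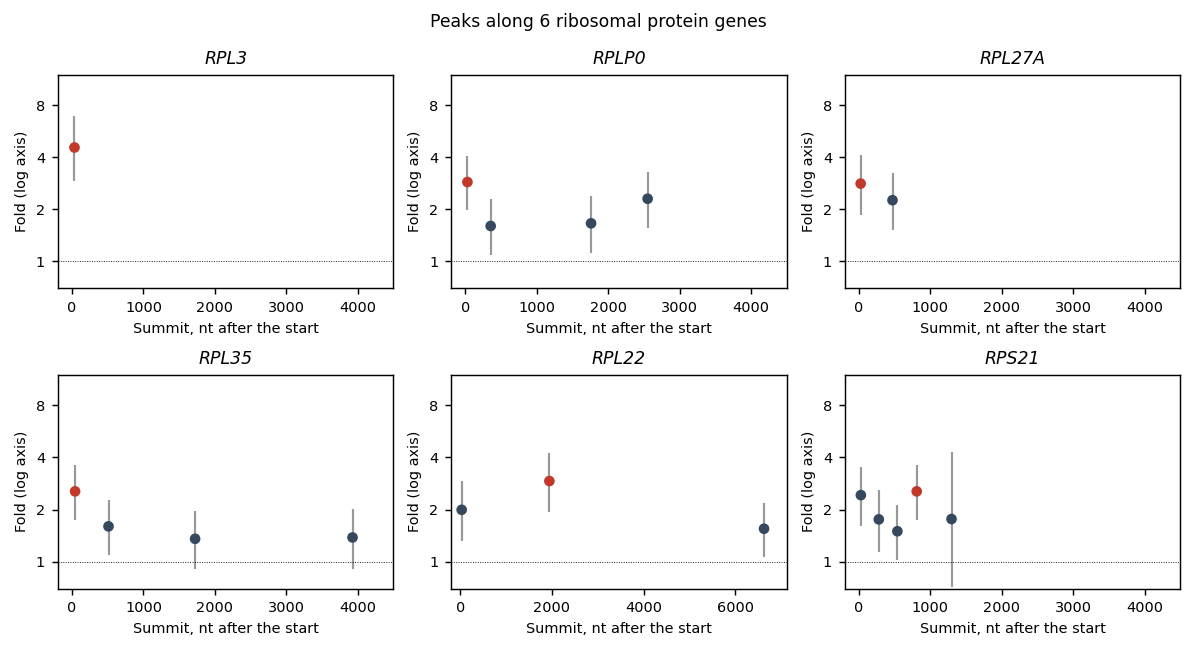
Fold of RIP over input (vertical axis, log scale) with exact Poisson 95% intervals for the peaks inside 6 ribosomal protein genes, by the distance of the summit from the start site in nt (horizontal axis, longer for RPL22); red points have a q of at most 0.05. RPLP0, RPL27A and RPL35 have their highest fold at the 5′ end, RPL3 has a single peak there by the rule, and RPL22 and RPS21 are highest further along the gene.

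Ribosomal protein genes have many processed pseudogenes: 77 of the 81 genes have at least 1 pseudogene in RefSeq, with a median of 16 per gene. The handling of reads that match several places is not given in the sources used here, and the part of such reads in the values was not tested. Of 1966 ribosomal protein pseudogenes in RefSeq, 26 carried a peak in the list, and RPS2P32 alone reached a fold of 4, at 4.32 (1.81 to 9.7) on 4 RIP fragments. How many of the 1966 the deposited annotation could assign a peak to was not examined.

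RPS9, a small-subunit protein involved in decoding accuracy, had a fold of 5.29 (2.86 to 9.12) at a q of 0.00203, on 11 RIP fragments against 2 input fragments at 26 nt after the start. This peak lies on an alternate contig of chromosome 19 (KI270938v1, 175840 to 175894). RPS9 had 12 peaks, and its 2 peaks on chromosome 19 itself rested on 1 RIP fragment each. The origin of the RPS9 reads was not tested. Over all members, 11 peaks lay on 4 alternate contigs.

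RPS21, a small-subunit protein, had its highest fold inside the gene 809 nt after the start (chr20:62387868-62387939), with 29 RIP fragments against 17 input fragments and a fold of 2.55 (1.73 to 3.62) at a q of 0.0465, while its 5′ end held 26 against 16, a fold of 2.42 (1.61 to 3.51). Those 2 intervals overlap almost wholly. RPS4X, the X-linked form of a small-subunit protein, and RPL39, a small protein of the exit tunnel, both held 23 RIP fragments against 14 input fragments at the 5′ end, each with a fold of 2.43 (1.58 to 3.60) at a q of 0.205.

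RPS14, encoded in the region lost in the 5q- syndrome, had 20 RIP fragments against 18 input fragments at its 5′ end, a fold of 1.69 (1.07 to 2.57), and its highest fold inside the gene, 2.56 (1.63 to 3.85), lay in exon 4 of 5 on 21 RIP fragments against 12 input fragments. RPS6, the substrate of the S6 kinases, held 27 RIP fragments against 23 input fragments at its 5′ end, a fold of 1.80 (1.21 to 2.59), and its highest fold of all, 3.06, lay outside the gene on 4 RIP fragments. RPS19, the gene most often mutated in Diamond-Blackfan anaemia, had 27 against 19 at 31 nt, a fold of 2.15 (1.44 to 3.09). In RPS23 and RPL27 too, the highest folds of 3.06 and 3.12 lay outside the gene, on 4 and 5 RIP fragments. RPS29, RPL31 and RPS15A had among the most peaks, 13, 12 and 9, and none of theirs reached q of 0.05.

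The 19 members with a peak but none at the 5′ end were RPL4, RPL9, RPL10, RPL10A, RPL12, RPL13, RPL15, RPL17, RPL24, RPL27, RPL30, RPL34 and RPL39L of the large subunit and RPS2, RPS7, RPS26, RPS27L, RPS28 and RPS29 of the small subunit. Several fell just outside the window. RPL4 had its summit at 62 nt, RPS28 and RPS29 at 66 nt and RPL13 at 4 nt before the start, while RPL34 had one 29 nt before the assigned start, with 18 RIP fragments against 9 input fragments and a fold of 2.83 (1.74 to 4.39). RPL34 also had the highest fold of the genes that did not reach q of 0.05, 3.67 (1.61 to 7.75) in its 3′ UTR, on 5 RIP fragments against 1 input fragment at a q of 0.423. RPL39L and RPS27L, paralogues of RPL39 and RPS27, had 5 peaks each.

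RPL7A, a large-subunit gene on chromosome 9, had no peak by the rule but 8 summits inside its RefSeq span, 7 of them assigned to the snoRNA genes SNORD24, SNORD36A, SNORD36B and SNORD36C and 1 to its neighbour MED22. They held 24 to 28 RIP fragments against 18 to 29 input fragments, with folds of 1.39 to 2.34, like other members. RPL3L and RPL10L had no summit by any assignment. Over the whole family, 152 of the 382 summits inside the span of a member were assigned to another gene, in 43 host genes: 106 to snoRNA genes (median fold 1.63 on 25 RIP fragments), 25 to protein-coding genes, 20 to miRNA genes and 1 to a small cytoplasmic RNA. These are left out of the counts above, and with them 79 of the 81 genes had a summit inside the gene.

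Of those 152 summits, 7 reached q of 0.05, against a background of 1.63% of all peaks, whose median depth was 2 RIP fragments. The highest lay in RPS3A, a small-subunit gene, and was assigned to SNORD73A (chr4:151104498-151104576), with 22 RIP fragments against an input level of 2.26 and a fold of 7.06 (4.54 to 10.5) at a q of 1.26e-09. By the rule RPS3A had a single peak, where 26 RIP fragments against 27 input fragments gave a fold of 1.49 (0.993 to 2.16). The next were in RPL35A, assigned to DRC9, with 8 RIP fragments against 1 input fragment and a fold of 5.51 (2.73 to 10.3), and in RPL37, assigned to SNORD72, with 7 against 1 and a fold of 4.90. RPL21, RPL8 and RPL13A had such summits too, with folds of 3.68, 2.94 and 2.63 on 19, 28 and 30 RIP fragments. Assignment to a snoRNA gene does not mean overlap with it. Some of these summits are in classes more than 1 kb from its start, among them that of RPL21, assigned to SNORD102. For a summit close to a snoRNA gene, reads of the host mRNA and of the nested snoRNA cannot be told apart from position alone.

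Compared with other genes of the translation machinery, the cytosolic ribosomal protein genes had the largest share with a 5′-end peak among the lists examined. Mitochondrial ribosomal proteins, which act in a separate ribosome and whose mRNAs are not TOP mRNAs as a class, had one in 15 of 72 genes (20.8%, 12.2 to 32), with a median of 13 RIP fragments. Other known TOP mRNAs had one in 9 of 20 genes (45%, 23.1 to 68.5), with a median of 25 RIP fragments, near the 26 of the ribosomal proteins. EEF1A1, the elongation factor that brings aminoacyl-tRNA to the ribosome, held 29 RIP fragments against 19 input fragments at 26 nt, a fold of 2.30 (1.57 to 3.27), the same values as RPL19. Regulators of TOP mRNAs such as LARP1 and MTOR had one in 6 of 13 genes (46.2%, 19.2 to 74.9), on a median of 6 RIP fragments, and ribosome biogenesis factors in 9 of 33 (27.3%, 13.3 to 45.5). The intervals of the other TOP mRNAs and of the regulators overlap that of the cytosolic ribosomal proteins (64.6 to 84.7). Those of the mitochondrial ribosomal proteins and biogenesis factors do not. No depth floor was applied to these lists, so the part of depth was not tested.

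The highest fold per gene followed another order. Beside the 3 of 78 cytosolic ribosomal proteins, a fold of at least 4 was reached by 8 of 33 ribosome biogenesis factors, 3 of 72 mitochondrial ribosomal proteins, 2 of 13 TOP regulators and none of the 20 other TOP mRNAs. The median highest fold was 2.21 for cytosolic ribosomal proteins, 2.29 for mitochondrial ones, 2.66 for other TOP mRNAs, 2.91 for TOP regulators and 3.04 for biogenesis factors. The lists also differ in peaks per gene, with medians of 3.5, 4, 9.5, 20 and 9 in the same order, while their median peak folds lay close together at 1.79, 1.84, 1.78, 1.86 and 1.86. Among the biogenesis factors RRP1B had 5.58, UTP20 5.51, MDN1 5.19 and BMS1 4.41, on 6, 8, 5 and 9 RIP fragments. Among the TOP regulators RPTOR, the mTOR complex 1 scaffold, had 4.64, LARP4B 4.14, LARP1 3.88 and MTOR 3.69. These 4 rested on 4, 9, 3 and 4 RIP fragments, at a q of 0.00359, 0.0844, 0.00426 and 0.309. The interval of LARP1, for example, was 1.57 to 9.48. The median peak rested on 23 RIP fragments in the cytosolic ribosomal proteins and on 3 in the biogenesis factors, so that the counting interval of a given fold is narrower in the ribosomal proteins. Those intervals take no account of the scarcity of summits above 31 RIP fragments.

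**Figure D5:**
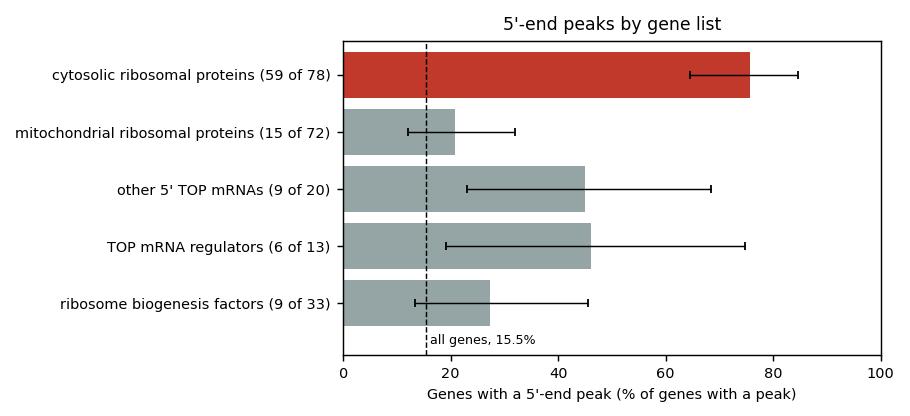
Share of genes with a 5′-end peak (horizontal axis, % of genes with a peak) in the cytosolic ribosomal proteins (red) and 4 other gene lists (grey), with exact Clopper-Pearson 95% intervals as bars. The cytosolic ribosomal proteins stand at 75.6%, the other lists lie between 20.8% and 46.2%, and the dashed line marks 15.5% of all genes.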

How the data were processed

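The CRTC2 RIP and input libraries of HCCLM3 cells were deposited as 1 annotated peak list. HISAT2, MACS2 and hg38 are named in the submitters' processing notes, without versions or settings. The authors' fold is the linear enrichment ratio at the summit, per the file headers, taken here as RIP over input. The score column of the deposited list was not used. The −log10 p and −log10 q columns of the deposited list were identified by place and values, since their headers were spoiled. Assignment and annotation classes are those of the deposited list. Exon and intron peaks were counted for the gene named in their annotation, all others for the assigned gene, and symbols came from RefSeq.

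RIP fragments and input levels were solved from the deposited fold (pseudocount 1) and −log10 p. A whole number met both within 0.001 for 100% of peaks, against 4.06% of 20000 peaks after shuffling p, and it was the single solution for 97.5%. Input levels within 0.002 of a whole multiple of 0.634 were counted as whole. The calculation was tested on simulated data. Start sequences on chromosome 8 are not shown. Scripts used Python 3.11.15, pandas 2.3.3, numpy 2.4.6 and scipy 1.17.1.

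Each group has 1 library, so no test was run and shares stand beside the same share over all genes or peaks. The members and lists were chosen with earlier results of these data known. Genes were named where a peak reached q of 0.05, where they were among the 10 highest by fold or −log10 p or the 5 with most peaks, or had no peak, and for other lists the 4 of highest fold; this gave 20 members. Some members are not reported here. Other members named here were chosen after their values were seen, for their role or position. Alternatives changed the gene assignment, thresholds, depth, width, contigs and region classes.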

Additional observations from a re-analysis of the deposited data

How the results depend on the processing

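Of 68 alternative values, 43 stayed within the limits set for a move and 25 moved. Assigning every peak to the nearest start site gave 6 members with a fold of at least 4, a median peak fold of 1.84 and 43.0% of peaks in the promoter class. Keeping only summits inside the gene gave a median peak fold of 1.72, a median highest fold of 2.01 and 77.7% in the promoter class. Keeping only peaks of fold at least 4 left 3 genes, all 3 with a q of at most 0.05, medians of 5.29 and 5.29, 80% in the promoter class and 100% of peaks at q of at most 0.05. Keeping only peaks at q of at most 0.05 left 10 genes, 6 of them with a 5′-end peak, a median peak fold of 2.94, a median highest fold of 2.90 and 91.7% in the promoter class. At least 5 RIP fragments gave a median peak fold of 1.67 and 81.1% in the promoter class. Leaving out the promoter class left 43 genes, 1 with a q of at most 0.05 and 1 with a fold of at least 4, a median peak fold of 1.87 and 0.926% of peaks at that q. These shifts follow from which peaks each setting keeps.

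The settings on the 5′-end peaks and the count over any assignment were chosen after seeing the data. A window of 0 to 30 nt gave 35 members with a 5′-end peak, and one of 0 to 100 nt gave 63. Main chromosomes only gave 57 and at least 5 fragments 58. No paired analysis was possible because each group has 1 library.

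The intervals hold the input fixed and leave out its counting error. No replicate exists to check any value.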
